A study of Mus musculus with 20 samples.

Results

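Antigen receptor genes were followed across 10 sorted populations of mouse haematopoietic cells. The members were found by name: a probe set belonged if the platform annotation gave it a symbol of an immunoglobulin heavy, kappa or lambda segment, or of a T cell receptor alpha, beta, gamma or delta segment, with Ighmbp2 left out. The search found 68 of the 45037 probe sets that are not controls. Of these, 54 carried 1 symbol, from 27 genes, and 14 carried several symbols. The immunoglobulin members numbered 51 (23 heavy, 24 kappa and 4 lambda chain probe sets) and the T receptor members 17 (9 alpha, 3 beta and 5 gamma). No delta chain probe set was found. The same naming rule matched 647 genes of the RefSeq annotation of GRCm38.p6, so the array reads a small share of the segments. Alone or with others, 35 of the 19324 symbols of the annotation occurred, and all 35 were in RefSeq, 30 as V segments and 5 as C regions. V segments and constant regions of one locus are similar in sequence, and 26 members carried the suffix _x_at (21) or _s_at (5), given to probe sets that may also detect related transcripts. A probe set was therefore read as a sensor of its locus, and levels were compared between populations within a probe set, never between probe sets.

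Total RNA came from C57BL/6 cells with no other genotype or treatment stated, and each population was measured on 2 arrays of an Affymetrix whole-genome mouse design (20 arrays). KSL is a fraction rich in blood stem cells and early progenitors. LinNeg cells lack lineage markers. The others were B (B220+), CD4T, CD8T, NK (NK1.1+), NKT (CD3ε+ NK1.1+), Erythroblast (Ter119+), Neutrophil (Gr-1+) and Monocyte (Mac-1+, which the labels call monocytes/macrophages). The sources used here do not give the tissue, the age or the animals behind each replicate, so the p-values below measure the spread between these arrays, which may be partly technical. A bulk measurement of this kind cannot tell fewer cells of a type from less RNA per cell.

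B cells build an antibody, and T cells an antigen receptor, by V(D)J recombination: the RAG enzymes cut the DNA beside V, D and J segments, and the joined segment is transcribed with a constant region. Heavy chain constant regions define the antibody class: Ighm encodes the mu chain of IgM, Ighg3 that of IgG3 and Igha that of IgA. Light chains are kappa (Igk) or lambda (Igl). Most T cells carry an alpha and a beta chain, and a smaller lineage carries gamma and delta chains. Constant regions can also be transcribed without a complete rearrangement, so signal for a locus does not by itself show a functional receptor.

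Some populations held signal of other cell types. Neutrophil genes were close to their Neutrophil level in Monocyte: the summed intensity of 6 neutrophil markers was 83307 and 68695 in the Neutrophil arrays and 66725 and 55353 in the Monocyte arrays. The same sum was 16904 and 12984 in NK, 95.1 and 2949 in LinNeg, 277 and 2008 in NKT, and from 62.6 to 256 in the KSL, B, CD4T, CD8T and Erythroblast arrays. NK also held the monocyte marker Csf1r (the receptor of macrophage colony-stimulating factor) at a mean of 6364, above its mean of 4843 in Monocyte. Sums of lymphoid markers were highest in the populations labelled for them. For B cells, 9 markers summed to 25746 and 22444 in B. For T cells, 12 markers summed to between 9890 and 16648 in CD4T, CD8T and NKT. Among these 12, Zap70 went the other way, with means of 467 in Erythroblast, 119 in CD4T, 94.1 in CD8T and 126 in NKT. In the remaining populations the B cell sum lay between 144 and 953 and the T cell sum between 209 and 1194, with the highest of both in NK. Of the 3 tested genes listed for NKT cells, 0 were called higher in NKT than in T. Cd1d1 was called lower, but it did not mark NKT in these arrays: its mean was 311 in NKT and highest in B, at 1308. Zbtb16, the transcription factor PLZF, had means of 130 in NKT, 116 in CD4T and 19.9 in CD8T. Tbx21 had means of 1224 in NKT, 439 in CD4T and 338 in CD8T. All 3 listed genes had an unadjusted p under 0.05 by limma.

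Values are the deposited intensities on the authors' linear scale, given as replicate 1 and replicate 2. Differences are on the scale log2(intensity + 6.75), which understates the change of dim probe sets, and come from a limma model of all 20 arrays. A probe set was tested if its highest population mean exceeded an intensity of about 22.9, and was called if its Benjamini-Hochberg adjusted p was under 0.05 and its log2 difference at least 1. This filter left 31669 probe sets, with 50 of the 68 members (36 immunoglobulin and 14 T receptor). The 18 members not tested (9 heavy, 6 kappa, 3 alpha chain) stayed between 7.66 and 32.4 on their brightest array. Since a member could pass through a population in which it was bright, counts of members below describe the tested members and are printed beside the share called among all probe sets. Several comparisons share populations and are not independent of each other.

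**Figure D1:**
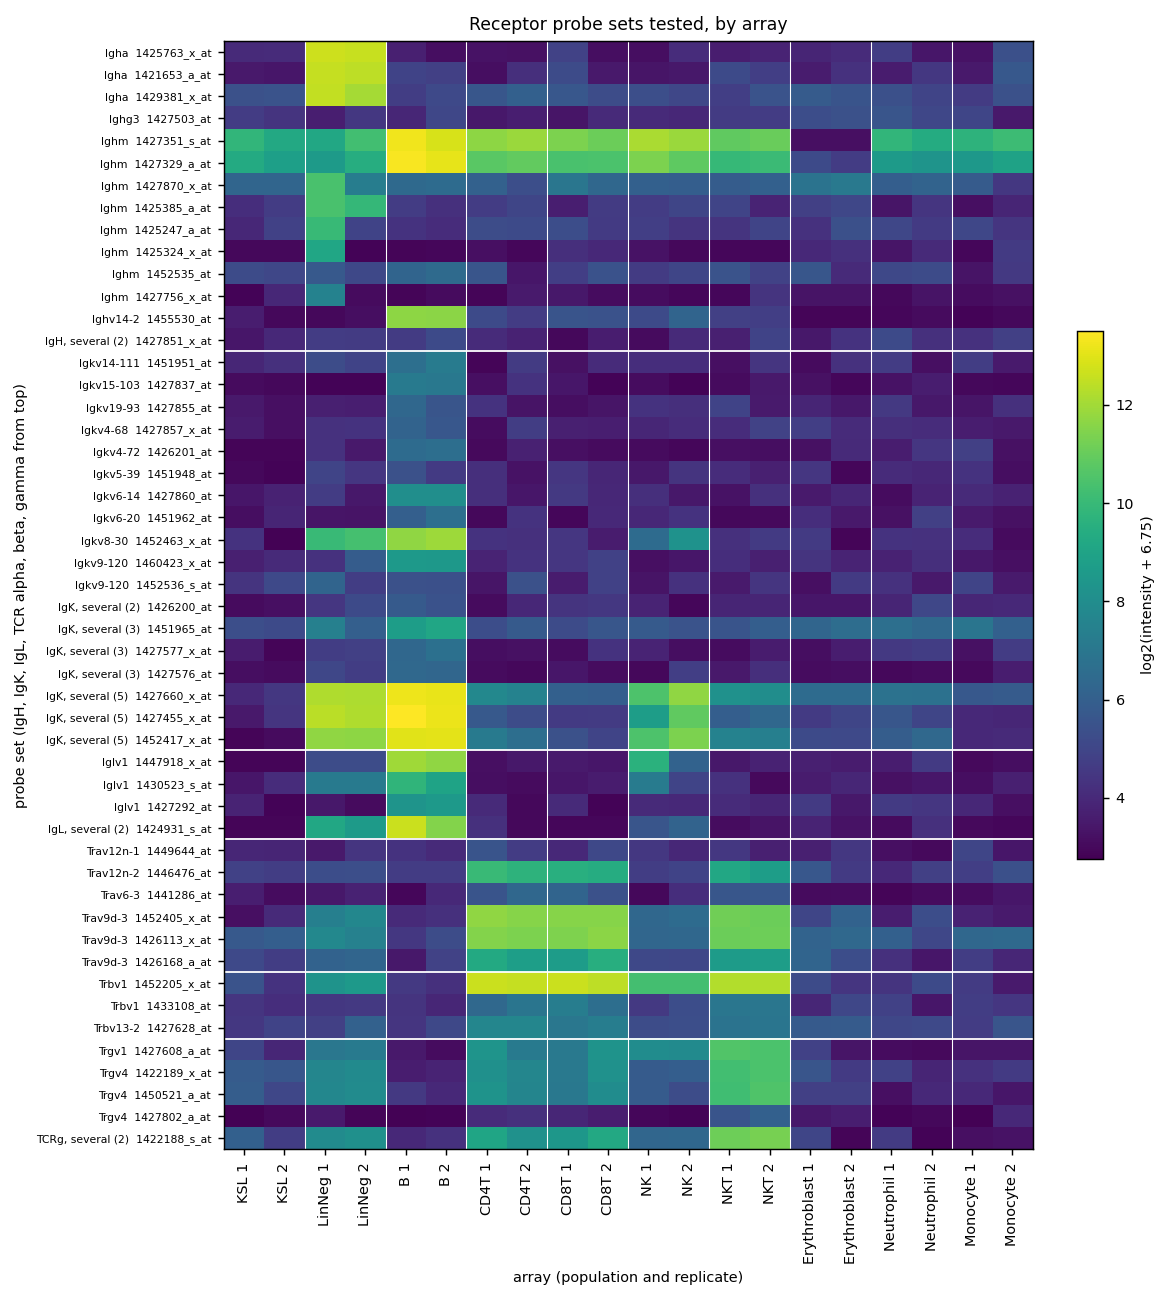
Level of the 50 tested receptor probe sets (rows, grouped by locus, with the number of symbols in brackets where there are several) on each of the 20 arrays (columns), as log2(intensity + 6.75). Of the 36 immunoglobulin rows 26 have their highest mean in B, 9 in LinNeg and 1 in Erythroblast. Of the 9 alpha and beta chain rows 6 have it in CD4T and 3 in CD8T, and the 5 gamma chain rows have it in NKT.

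The B minus T comparison set B against the mean of CD4T and CD8T. Of the 50 tested members, 23 were called higher in B, where 5.29% of all probe sets were, and 13 were called lower, where 6.10% were. The 23 higher members were immunoglobulin probe sets (3 heavy, 16 kappa and 4 lambda chain, of 36 tested) and the 13 lower ones were T receptor probe sets (of 14 tested). The median log2 difference was 1.20 over the members and -0.05 over all probe sets tested. B was called above each of the 9 other populations for 20 immunoglobulin members, where 0.988% of all probe sets were called above each other population in B. Over any population 30 members were, where 9.03% of all probe sets were: 20 in B, 5 in LinNeg and 5 in NKT. The other 7 populations had 0 such members, where 0.553% of all probe sets were for KSL, 0.196% for CD4T, 0.0347% for CD8T, 0.546% for NK, 5.79% for Erythroblast, 0.707% for Neutrophil and 0.0316% for Monocyte. In B minus T, 11.4% of all probe sets were called in either direction.

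Among heavy chain members, Ighv14-2 (1455530_at), a variable segment, read 3235 and 3196 in B. It read 29.2 and 67.9 in NK, 40.4 and 37.7 in CD8T, 29.0 and 18.6 in CD4T and 20.7 and 20.5 in NKT, and at most 5.50 on any array of KSL, LinNeg, Erythroblast, Neutrophil or Monocyte. B thus stood far above all others, and a low level separated the mature lymphoid and NK arrays from the rest. The log2 difference of Ighv14-2 was 6.44 ± 0.34 (SE) for B minus T (limma adjusted p = 2.54e-11) and 2.25 ± 0.28 for T minus myeloid, the mean of CD4T and CD8T against that of Neutrophil and Monocyte (limma adjusted p = 1.11e-06). Of 9 B cell markers, Cd79b, Blk and Cd22 were called higher in T than in myeloid cells and Ms4a1 (CD20) lower, at means of 12.0 in CD4T, 5.34 in CD8T, 17.6 in Monocyte and 44.9 in Neutrophil. Their part in this difference was not tested.

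Ighm was the annotated symbol of 11 probe sets, 8 of them tested, and these did not share 1 pattern: 3 had their highest mean in B and 5 in LinNeg. Which part of a heavy chain transcript, variable or constant, each of them detects was not tested, so the values are those of probe sets with this annotation and not a measure of mu chain. The probe set 1427329_a_at read 10908 and 8869 in B, 2620 and 1843 in NK, 1726 and 1953 in CD4T, 1374 and 1401 in CD8T, and 971 and 1073 in NKT. It was lower but still well above the level of the filter in the rest of the white cells, with 381 and 688 in LinNeg, 634 and 441 in KSL, 347 and 487 in Monocyte and 385 and 310 in Neutrophil. Erythroblast was the exception, at 29.0 and 18.9. B exceeded NK, the next population, by 2.16 ± 0.26 on the log2 scale (limma adjusted p = 3.56e-06), and KSL exceeded Erythroblast by 4.14 ± 0.26 (limma adjusted p = 6.61e-11). A second probe set for Ighm, 1427351_s_at, gave the same order at the ends: 9754 and 7442 in B, 4497 and 3778 in NK, and 2.42 and 2.29 in Erythroblast. Between T and myeloid cells both were called higher in T, by 2.06 ± 0.18 and 1.75 ± 0.19 (limma adjusted p = 8.69e-09 and 2.00e-07).

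Among the probe sets bright in LinNeg, the one annotated Ighm with the number 1425385_a_at read 1346 and 942 there and at most 26.0 elsewhere, and it was higher in LinNeg than in B by 5.69 ± 0.48 on the log2 scale (limma adjusted p = 2.76e-08). A further 4 with that annotation were brighter on the first LinNeg array than on the second: 1427870_x_at at 1378 and 153, 1425247_a_at at 1020 and 23.4, 1425324_x_at at 551 and 0.527, and 1427756_x_at at 175 and 1.63. In B the last 3 of these lay between 0.697 and 13.1. Outside the first LinNeg array, 1425324_x_at and 1427756_x_at were below the level of the filter on every array. The LinNeg minus B calls of 1425324_x_at and 1427756_x_at (limma adjusted p = 0.0434 and 0.0495) were lost without either B array (limma adjusted p from 0.13 to 0.16) and without most other single arrays. Without the first LinNeg array, 1427870_x_at was no longer called against KSL (log2 difference 1.05, limma adjusted p = 0.37) or B (0.85, limma adjusted p = 0.23) and neither was 1425247_a_at (0.70, limma adjusted p = 0.47). The remaining tested Ighm probe set, 1452535_at, was dim, at 68.1 and 82.7 in B.

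Ighg3 was measured near background: 1 of its 4 probe sets was tested, 1427503_at, with its brightest array at 42.0 in Neutrophil. It was called lower in T than in myeloid cells (log2 difference -1.17 ± 0.36, limma adjusted p = 0.011), with arrays that overlapped between the sides. The call was lost without the first CD8T array (limma adjusted p = 0.051) or without the first Monocyte array (limma adjusted p = 0.088).

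Igha, the constant region of IgA, gave the largest LinNeg minus KSL difference of the 50 tested members. Its probe set 1421653_a_at read 5997 and 5461 in LinNeg and at most 46.0 on the other 18 arrays. The probe set 1425763_x_at read 6573 and 6166 in LinNeg and at most 35.1 elsewhere. For 1429381_x_at the LinNeg values were 5811 and 4268 and the highest other value was 59.4. All 3 Igha probe sets therefore separated LinNeg from each other population without overlap, B included, where 1421653_a_at read 23.8 and 21.1. Against KSL the log2 differences were 9.04 ± 0.61, 8.58 ± 0.62 and 6.83 ± 0.36 (limma adjusted p = 2.55e-08, 5.47e-08 and 3.76e-10). Against B they were 7.62 ± 0.61, 9.23 ± 0.62 and 7.36 ± 0.36 (limma adjusted p = 1.63e-08, 1.65e-09 and 2.76e-11). LinNeg was called above each other population for 5 immunoglobulin members, the 3 of Igha and 2 annotated Ighm (1425385_a_at and 1427870_x_at). Of all probe sets, 0.129% were called so for LinNeg.

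**Figure D2:**
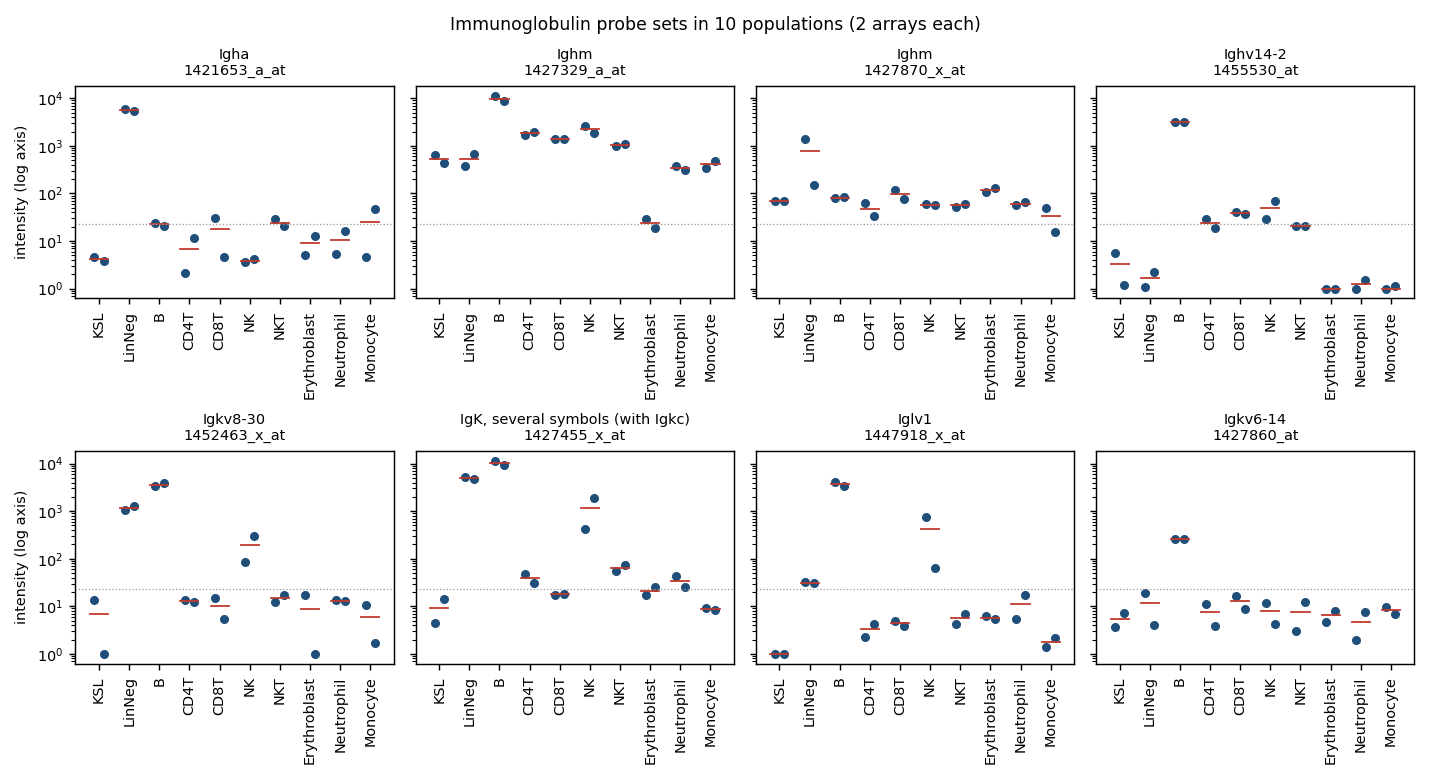
Intensity (log axis, values under 1 drawn at 1) of 8 immunoglobulin probe sets on the 2 arrays of each of the 10 populations; points are arrays, red bars are means and the dotted line is the level of the filter, 22.9. Igha stands at 5461 or more on the LinNeg arrays and at 46.0 or less elsewhere, Ighv14-2 at 3196 and 3235 in B, and the brightest Ighm probe set at 310 or more on each array outside Erythroblast.

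Across LinNeg minus KSL, 22 of the 50 tested members were called higher in LinNeg and 0 lower, against 1.81% and 2.43% of all probe sets. By limma 29 members had an unadjusted p under 0.05, and 4.23% of all probe sets were called in either direction. The 22 comprised 5 heavy, 7 kappa and 3 lambda chain probe sets and 2 alpha, 1 beta and 4 gamma chain probe sets. The median log2 difference was 1.60 over the tested members and -0.03 over all probe sets tested. Without the second KSL array the count was 14.

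Kappa transcripts accompanied Igha in LinNeg. For the 3 kappa probe sets whose annotation lists Igkc, the constant region, among 5 symbols, LinNeg read 4826 and 4653 (1427660_x_at), 5291 and 4796 (1427455_x_at), and 3376 and 3299 (1452417_x_at). KSL read at most 16.1 on any of them. The log2 differences from KSL were 7.95 ± 0.27, 8.36 ± 0.45 and 8.73 ± 0.27 (limma adjusted p = 2.59e-13, 5.90e-10 and 1.15e-13). In B the same probe sets read between 8281 and 11505, and 1452417_x_at alone of the 3 was called lower in LinNeg than in B (log2 difference -1.32 ± 0.27, limma adjusted p = 0.00091). Igkv8-30 (1452463_x_at), a kappa variable segment read by a probe set of the _x_at kind, gave 1051 and 1267 in LinNeg and 3360 and 3866 in B. Its LinNeg minus KSL difference was 6.61 ± 0.58 (limma adjusted p = 7.75e-07), and B exceeded LinNeg by 1.64 ± 0.58 (limma adjusted p = 0.040).

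Against B, LinNeg was higher for 16 tested members and lower for 20, where 10.9% and 11.1% of all probe sets were (22.0% in either direction). The 20 lower members were 3 heavy, 13 kappa and 4 lambda chain probe sets. Ighv14-2 read 1.07 and 2.19 in LinNeg, a log2 difference of -8.59 ± 0.40 from B (limma adjusted p = 1.96e-11). Ighm 1427329_a_at fell by 4.25 ± 0.26 from B to LinNeg (limma adjusted p = 4.60e-10). The 16 higher members were the 3 probe sets of Igha, 5 annotated Ighm, and 8 T receptor probe sets. Of the 5 annotated Ighm, all but 1425385_a_at were much brighter on the first LinNeg array than on the second, as given above. LinNeg and B thus differed in which immunoglobulin probe sets were bright, while the probe sets listing Igkc were bright in both.

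Markers of other cells were read beside these values. Of 9 B cell markers 0 were called between LinNeg and KSL (2 had an unadjusted p under 0.05 by limma), and their sum was 243 and 258 in LinNeg against 241 and 234 in KSL. Of 8 plasma cell markers 2 were called higher in LinNeg: Jchain, the joining chain of polymeric IgA and IgM, at a mean of 2958 against 12.1 in KSL, and Mzb1, a chaperone of antibody secretion, with means of 78.8 in LinNeg and 1476 in B. The plasma cell sum was 4804 and 4661 in LinNeg, 1646 and 1881 in KSL, and 4015 and 3578 in B. Xbp1 made up 1456 and 1663 of it in LinNeg, 1462 and 1727 in KSL, and 1340 and 1161 in B. Jchain made up 3138 and 2777 of it in LinNeg. Tnfrsf17 and Derl3 had means of 27.9 and 41.9 in LinNeg against 11.2 and 35.0 in KSL and were not called. Irf4 and Prdm1, transcription factors of plasma cells, had means of 1.33 and 21.8 in LinNeg, and Sdc1 (CD138) had 44.0 against 65.2 in KSL. Among the 6 neutrophil markers Ltf (lactoferrin) was called higher in LinNeg, 5 had an unadjusted p under 0.05 by limma, and their sum differed between its 2 arrays as given above. Also called higher were 3 of 5 monocyte markers (Ccr2, Ly86 and Cx3cr1), 4 of 8 NK cell markers (Klrk1, Klrd1, Gzma and Eomes) and 2 of 4 erythroid markers (Klf1 and Epor). The monocyte sum was 1941 and 2073 in LinNeg against 860 and 297 in KSL, the NK cell sum 921 and 1442 against 464 and 326, and the erythroid sum 2339 and 1888 against 291 and 100.2. The part of any of these cells in the LinNeg signal was not tested.

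Variable kappa segments were otherwise signals of B. Igkv6-14 (1427860_at) read 259 and 263 in B and at most 18.9 elsewhere. Igkv9-120 (1460423_x_at) read 365 and 355 in B, and its next highest array was the second of LinNeg at 51.8. Igkv15-103 (1427837_at) read 137 and 127 in B and at most 13.6 elsewhere, and Igkv4-72 (1426201_at) read 85.8 and 92.8 against at most 21.1. These 4 segments separated B from all other arrays, with B minus T differences of 4.04 ± 0.43, 4.16 ± 0.40, 3.67 ± 0.37 and 3.31 ± 0.44 on the log2 scale (limma adjusted p from 1.41e-07 to 1.04e-05). Dimmer segments gave the same order at the top: Igkv14-111 read 96.0 and 141 in B, Igkv6-20 read 57.0 and 94.3, Igkv19-93 read 74.6 and 41.5, and Igkv4-68 read 66.2 and 44.6, each called above every other population. Igkv5-39 and the probe set 1452536_s_at of Igkv9-120 stayed at or under 67.7 and were not called in B minus T.

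Lambda chain signal was high in B and uneven elsewhere. Iglv1 was read by 3 probe sets: 1447918_x_at gave 4038 and 3319 in B, 1430523_s_at gave 872 and 504, and 1427292_at gave 313 and 366. LinNeg read 31.8 and 31.3 on the first, 140 and 139 on the second and 4.08 and 1.57 on the third. KSL read 0.764 and 0.736 on the first, 3.89 and 10.7 on the second and 7.38 and 0.492 on the third. LinNeg thus lay above KSL on the first and second and overlapped it on the third. The means of B and LinNeg were 3679 and 31.6 on the first, 688 and 139 on the second and 339 and 2.82 on the third. The probe sets thus disagreed on how far LinNeg lay below B, with the smallest distance on the second. The reason was not tested. The probe set listing Iglc1 and Iglv1 (1424931_s_at) gave 6291 and 2879 in B and 586 and 385 in LinNeg, where KSL read 0.824 and 0.785. Its LinNeg minus KSL difference was 6.00 ± 0.49 (limma adjusted p = 3.08e-07).

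NK arrays carried light chain signal that differed between replicates. NK minus T called 7 immunoglobulin members higher (4 kappa and 3 lambda chain) and 0 lower, and 11 T receptor members lower and 0 higher, where 7.41% of all probe sets were called higher, 5.39% lower and 12.8% in either direction. The 7 higher members were all of the _x_at or _s_at kind (of 23 tested), and 0 of the 27 tested members of other kinds were called higher. Among the 36 immunoglobulin members 9 had an unadjusted p under 0.05 by limma, and among the 14 T receptor members 12 did. The probe set 1427455_x_at, which lists Igkc, read 420 and 1870 in NK against at most 47.4 in CD4T and 18.2 in CD8T (log2 difference 4.74 ± 0.39, limma adjusted p = 2.20e-08). Igkv8-30 read 83.3 and 297 in NK, and Iglv1 1447918_x_at read 770 and 64.4. The Iglv1 probe set 1427292_at, of the plain kind, read 9.44 and 9.05 in NK and was not called. The 4 kappa probe sets were brighter on the second NK array and Iglv1 1447918_x_at on the first. Of the 9 B cell markers, Cd79b and Ms4a1 were called higher in NK than in T, with Ms4a1 at a mean of 286 in NK, and the B cell sum was 714 and 953. Jchain read 15.3 and 506 in NK. The share of these markers in the NK signal was not tested.

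The 2 arrays of a population could be compared member by member. In LinNeg, 8 of the 22 immunoglobulin members above the level of the filter differed between replicates by at least 1 on the log2 scale, where 4.54% of all probe sets did; 6 were higher on the first array and 2 on the second. In NK it was 6 of 13, where 2.44% of all probe sets did, with 2 higher on the first array and 4 on the second. In B it was 1 of 29, where 3.45% of all probe sets did. It was 0 of 10 in NKT (4.19% of all probe sets), CD4T (4.87%) and CD8T (3.93%). It was 0 of 6 in KSL (4.40%), 0 of 8 in Erythroblast (7.59%), 0 of 10 in Neutrophil (5.07%) and 1 of 6 in Monocyte (5.49%). Replicates thus differed in LinNeg and NK for single immunoglobulin probe sets while the Igha and Igkc probe sets of LinNeg agreed within a log2 difference of 1.

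**Figure D3:**
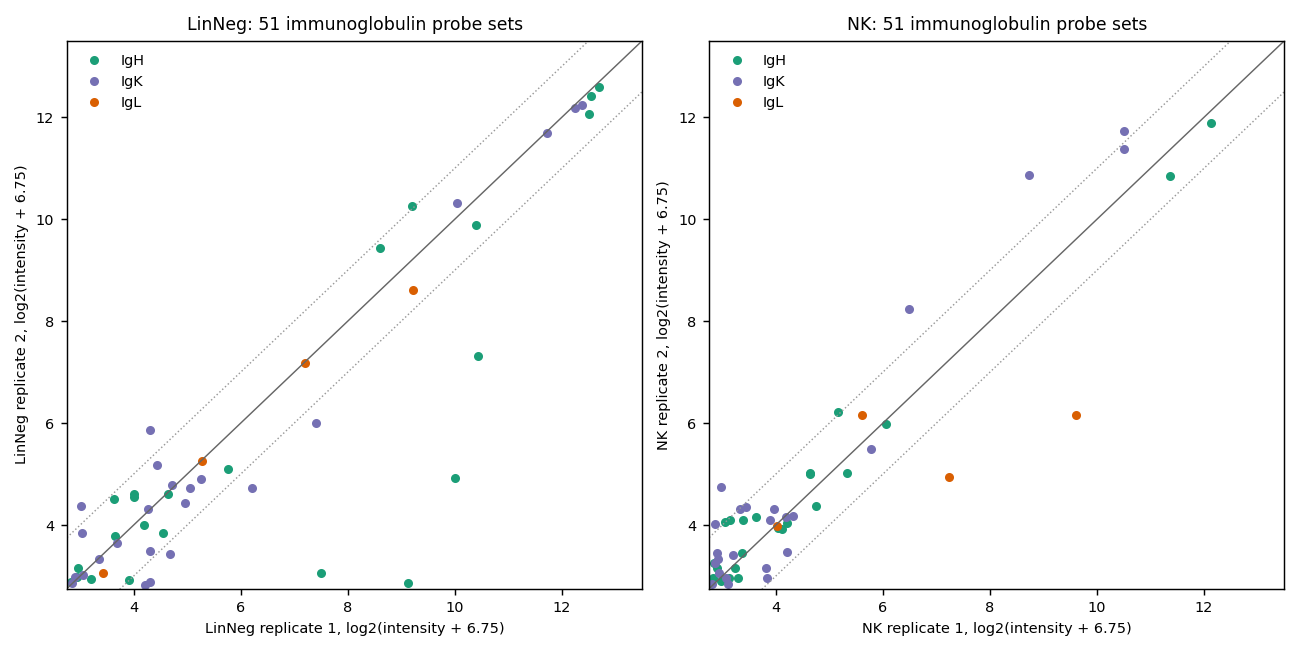
Replicate 1 (x axis) against replicate 2 (y axis) of LinNeg (left) and NK (right) for the 51 immunoglobulin probe sets, as log2(intensity + 6.75), coloured by locus; dotted lines mark a difference of 1. In LinNeg several heavy chain points lie below the lower line, such as Ighm 1425324_x_at at 551 and 0.527, and in NK 6 of the 51 points lie above the upper line (4 of them among the 13 above the level of the filter) and 2 below the lower.

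T receptor alpha and beta chain members marked the T lineage. T minus myeloid called 13 of the 14 tested T receptor members higher in T and 0 lower, where 18.7% of all probe sets were called higher, 12.2% lower and 30.9% in either direction. By limma 14 had an unadjusted p under 0.05. Of the 36 immunoglobulin members 3 were called higher in T and 3 lower. Trbv1 (1452205_x_at), a beta variable segment, read 6352 and 6074 in CD4T, 6336 and 5504 in CD8T and 4874 and 4884 in NKT. It read 1233 and 1240 in NK and 304 and 368 in LinNeg, and at most 38.9 on the arrays of the other populations. The order was therefore the 3 T populations, with no neighbours among them called different, then NK, then LinNeg, each step called. Trbv1 fell by 2.29 ± 0.32 from T to NK on the log2 scale (limma adjusted p = 1.91e-05), and the LinNeg minus NK difference was -1.87 ± 0.36 (limma adjusted p = 0.00056).

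The second Trbv1 probe set, 1433108_at, was dimmer, at 75.8 to 153 in the 3 T populations and 16.3 and 31.9 in NK. Trbv13-2 (1427628_at) read 201 and 196 in CD4T, 124 and 154 in CD8T, 110 and 116 in NKT and at most 61.1 elsewhere. The T minus myeloid difference of Trbv13-2 was 2.32 ± 0.28 (limma adjusted p = 8.29e-07). The NK minus T call of Trbv1 1433108_at was lost without the first NK array (limma adjusted p = 0.072).

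Trav9d-3, an alpha variable segment, was read by 5 probe sets, of which 3 were tested. The probe set 1452405_x_at read 3386 and 3001 in CD4T, 3029 and 3007 in CD8T and 2271 and 2190 in NKT, then 161 and 207 in LinNeg and 73.9 and 84.5 in NK. KSL read 2.47 and 9.70. In this case LinNeg was above NK (log2 difference 1.15 ± 0.41, limma adjusted p = 0.042), the opposite order to Trbv1. Trav9d-3 1426113_x_at read between 2197 and 3137 in the 3 T populations, and 1426168_a_at between 399 and 714. Trav12n-2 (1446476_at) read 1048 and 833 in CD4T, 736 and 669 in CD8T, 577 and 422 in NKT and at most 44.4 elsewhere, so here neither NK nor LinNeg stood apart from the myeloid arrays. Its T minus myeloid difference was 4.95 ± 0.25 (limma adjusted p = 2.33e-12). Trav6-3 was dim, at 36.6 to 73.5 in the 3 T populations, and Trav12n-1 reached 39.6.

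Calls between CD4T and CD8T were few among receptor members and among all probe sets alike. CD4T minus CD8T called 2 of the 50 tested members higher in CD4T and 0 lower, where 1.48% of all probe sets were called higher, 0.676% lower and 2.15% in either direction. Of all calls 68.6% were higher in CD4T, or 57.1% after centring on array medians, with the same count of members called. Neither member was a T receptor gene: by limma 0 of the 14 T receptor members had an adjusted p under the threshold and 0 had an unadjusted p under 0.05. The 2 called members list Igkc, with 210 and 178 in CD4T against 59.4 and 56.1 in CD8T for 1427660_x_at, and 139 and 92.0 against 36.1 and 24.3 for 1452417_x_at. Their differences were 1.63 ± 0.27 and 1.72 ± 0.27 (limma adjusted p = 0.0015 and 0.0011). The third probe set of that group, 1427455_x_at, was not called (0.88 ± 0.45, limma adjusted p = 0.42), and the B cell list had 0 of 9 genes called, 3 with an unadjusted p under 0.05.

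**Figure D4:**
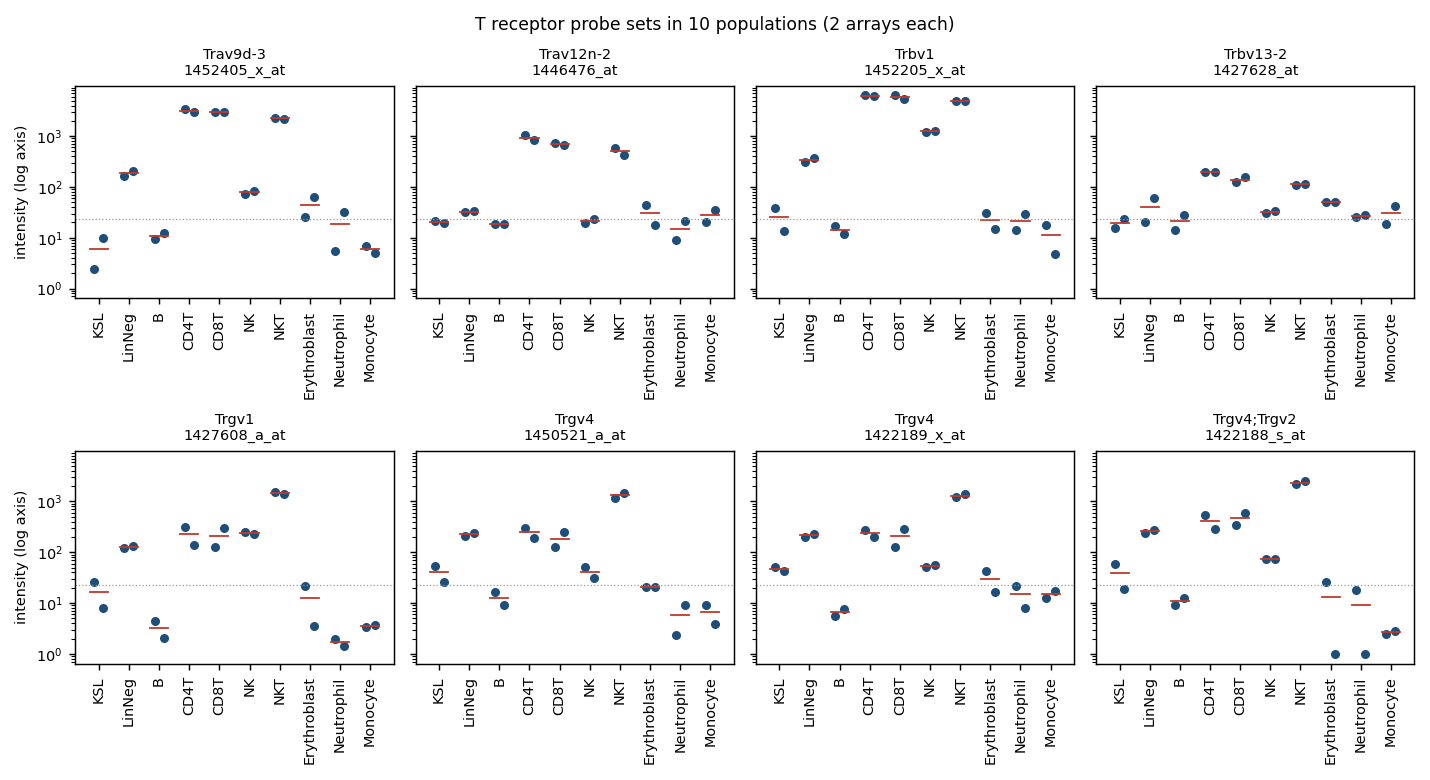
Intensity (log axis, values under 1 drawn at 1) of 8 T receptor probe sets on the 2 arrays of each of the 10 populations; points are arrays, red bars are means and the dotted line is the level of the filter, 22.9. Alpha and beta chain probe sets (top) are highest in CD4T, CD8T and NKT, and gamma chain probe sets (bottom) are highest in NKT, at 1175 to 2487.

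Gamma chain members set NKT apart. NKT minus T called 7 of 50 tested members higher and 0 lower, where 1.29% of all probe sets were called higher, 1.13% lower and 2.43% in either direction; 12 had an unadjusted p under 0.05 by limma. All 5 gamma chain probe sets were among the 7, and NKT was called above each other population for the same 5, where 0.0600% of all probe sets were. The alpha and beta chain members were not called between NKT and T (0 of 6 and 0 of 3, with 1 at an unadjusted p under 0.05 by limma). NKT cells are best known for an alpha-beta receptor of limited variety.

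Trgv1 (1427608_a_at), a gamma variable segment, read 1510 and 1408 in NKT, 249 and 229 in NK, 316 and 137 in CD4T, 128 and 298 in CD8T and 122 and 134 in LinNeg. The NK minus NKT difference was -2.58 ± 0.48 (limma adjusted p = 0.00090), while no neighbours among NK, CD4T, CD8T and LinNeg, in the order of their means, were called different. Trgv4 gave 1175 and 1499 in NKT by 1450521_a_at and 1220 and 1399 by 1422189_x_at. The CD4T values of these were 300 and 192, and 275 and 196, the LinNeg values 208 and 242, and 199 and 229, and the NK values 51.3 and 31.6, and 51.2 and 55.7. Trgv4 thus had NK below LinNeg (log2 difference 2.29 ± 0.40 for 1450521_a_at, limma adjusted p = 0.00020), whereas the LinNeg minus NK difference of Trgv1 was -0.87 ± 0.48 and was not called (limma adjusted p = 0.20).

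The NKT minus T differences were 2.81 ± 0.42 for Trgv1, 2.65 ± 0.35 and 2.59 ± 0.34 for Trgv4 1450521_a_at and 1422189_x_at, and 2.48 ± 0.51 for the probe set listing Trgv4 and Trgv2 (limma adjusted p = 0.00041, 0.00011, 0.00011 and 0.0076). The third Trgv4 probe set, 1427802_a_at, was dim, at 40.0 and 59.4 in NKT, and differed by 1.84 ± 0.37 (limma adjusted p = 0.00675). These last 2 calls depended on single NKT arrays. Without the first NKT array the probe set listing Trgv4 and Trgv2 had a limma adjusted p of 0.071, and without the second it had 0.11. Trgv4 1427802_a_at had 0.14 without the second and 0.029, still called, without the first. In CD4T and CD8T the gamma chain replicates were uneven, such as Trgv1 at 316 and 137. Of the 4 gamma-delta T cell markers measured, 0 were called between NKT and T (1 had an unadjusted p under 0.05 by limma). Their sum was 46.5 and 88.3 in NKT against 75.6 to 194 in CD4T and CD8T, and Cd163l1, a scavenger receptor gene of gamma-delta T cells, had a mean of 16.9 in NKT, 120 in CD8T and 113 in LinNeg. Other lists moved in the same contrast. Of 8 NK cell markers 5 were called higher in NKT (Ncr1, Klrk1, Klrd1, Eomes and Tyrobp), of 5 monocyte markers 3 (Csf1r, Ly86 and Mrc1), and of 6 neutrophil markers 1 (S100a9). The NK cell sum was 10886 and 10543 in NKT against 1624 to 5870 in CD4T and CD8T, and the monocyte sum 972 and 2062 against 243 to 1129. Their part in the gamma chain differences was not tested. The other 2 members called in NKT minus T listed Igkc, at 285 and 257 for 1427660_x_at, a call lost without the first NKT array (limma adjusted p = 0.057).

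Alpha and beta chain signal was lower in LinNeg than in CD4T, while Trgv4 was not called between them. Trbv1 1452205_x_at was lower in LinNeg than in CD4T (log2 difference -4.19 ± 0.36, limma adjusted p = 4.75e-08), and so was Trav9d-3 1452405_x_at (-4.07 ± 0.41, limma adjusted p = 2.76e-07). For Trgv4 1450521_a_at the difference was -0.09 ± 0.40 (limma adjusted p = 0.89). Against KSL, the probe sets of Trgv1 and Trgv4 1450521_a_at were higher in LinNeg by 2.62 ± 0.48 and 2.37 ± 0.40 (limma adjusted p = 0.0024 and 0.0012) and that of Trbv1 by 3.49 ± 0.36 (limma adjusted p = 8.44e-06). Of 12 T cell markers 4 were called higher in LinNeg than in KSL: Cd3d, Cd3g and Cd247, which encode chains of the CD3 signalling complex, and Bcl11b, a T lineage transcription factor. The sum over the 12 genes was 541 and 460 in KSL and 848 and 977 in LinNeg, against 16648 and 16268 in CD4T. Whether T cells account for the receptor signal in LinNeg was not tested.

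Outside the 2 bright Ighm probe sets, KSL read at most 70.6 on any tested member. KSL minus myeloid called 4 tested members higher and 5 lower, where 20.1% and 13.1% of all probe sets were, and 18.0% of the tested members were called against 33.2% of all probe sets. The 4 higher members were gamma chain probe sets: Trgv4 1450521_a_at read 53.6 and 26.5 in KSL against at most 9.32 in Neutrophil and Monocyte, and its difference was 1.84 ± 0.35 (limma adjusted p = 0.00021). Trgv1 read 25.6 and 8.06 in KSL, and its call (1.23 ± 0.42, limma adjusted p = 0.021) was lost without the first KSL array (limma adjusted p = 0.35). The call of the probe set listing Trgv4 and Trgv2 was lost without it too (limma adjusted p = 0.15), and the count without that array was 5. The 5 lower members were kappa probe sets with 33.9 or less in KSL. Dntt, the terminal transferase that adds bases at V(D)J joints, had its highest mean in KSL, 2390, against 264 in LinNeg (LinNeg minus KSL log2 difference -3.13 ± 0.62, limma adjusted p = 0.0046).

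**Figure D5:**
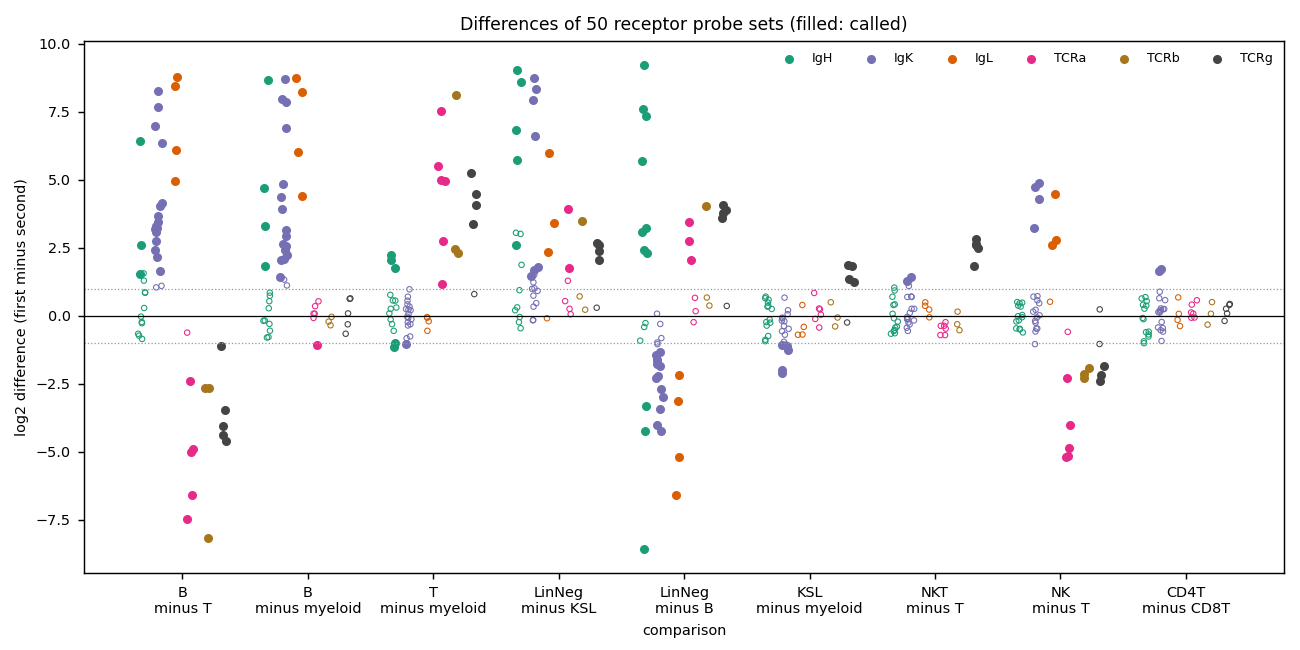
Log2 difference of the 50 tested receptor probe sets in the 9 comparisons (x axis), coloured by locus; filled points were called, open points were not, and dotted lines mark a difference of 1 in either direction. T means CD4T and CD8T, and myeloid means Neutrophil and Monocyte. In B minus T the filled points split into 23 immunoglobulin points above and 13 T receptor points below, and in NKT minus T the 5 gamma chain points are filled and above 1.

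B minus myeloid called 24 tested members higher, where 17.4% of all probe sets were, and 1 lower, where 12.0% were (29.4% in either direction). The 24 were immunoglobulin probe sets (4 heavy, 16 kappa, 4 lambda chain). The 1 lower member was Trav9d-3 1426113_x_at (-1.09 ± 0.24, limma adjusted p = 0.00093), with overlapping arrays, and its call was lost without the first B array (limma adjusted p = 0.060). Of the other genes of these pathways, the octamer factors that act on immunoglobulin promoters were highest in B: Pou2af1, the B cell coactivator, had a mean of 2964 and Pou2f2 (Oct-2) one of 76.3, and both were called higher in B than in T. Of 7 tested genes of recombination and early lymphoid cells, 2 were called higher in B than in T (Rag1, a subunit of the recombinase, and Vpreb3, of the pre-B cell receptor family) and 2 lower (Dntt and Il7r, the interleukin 7 receptor). Rag1 was low everywhere, with means of 49.3 in B, 26.1 in NK and 23.7 in NKT. Of 6 recombination partners, Lig4, the DNA ligase of end joining, and Nhej1, its partner, were called higher in B than in T, and 0 lower. Of the 3 tested genes of antibody diversification in germinal centres 0 were called between B and T (1 with an unadjusted p under 0.05 by limma).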

How the data were processed

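Each of the 20 arrays had 1 deposited intensity per probe set. These intensities are linear, and in each array their mean without the lowest and highest 2% was 100; the summarising software is not given in the sources used here, and 2-cycle labelling from 3000 cells is stated per the labels' protocols. Control probe sets (64) were left out. A pseudocount at the 25th percentile (6.75) was added, and a probe set was tested when its brightest population averaged more than the overall median on the log2 scale (4.89). All arrays were fitted in 1 limma model (version 3.58.1, R 4.3.3; lmFit and eBayes with trend, 10 residual degrees of freedom), with populations weighted equally and p-values adjusted within each of 9 contrasts over all 31669 probe sets tested. The steps were tested on simulated data.

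Symbols came from the platform annotation, and probe sets with several symbols were counted by locus, not named as 1 gene. Members, marker lists and contrasts were chosen with earlier results of these data known. Named with full values are the marker genes Igha, Igkv8-30, Ighv14-2 and Trgv4, the constant region genes, and up to 10 called members with the largest difference in each direction of a contrast, the rest by range and count; other genes come from the marker lists. Replicate numbers were not used as pairs: over 45 pairs of populations the correlation of replicate deviations ran from -0.08 to 0.21 with a median of 0.0074, and 1 pair exceeded 0.1. The pseudocount, filter, scaling, test, choice of probe sets and each array in turn were varied.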

Additional observations from a re-analysis of the deposited data

How the results depend on the processing

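Of 310 counts of called members recomputed over 10 results, 277 stayed within 1.5 times the reported one and 33 did not. Of 120 named pairs of probe set and comparison, 0 of 3439 recomputed values reversed and 124 fell short of the call, 77 of them (in 19 pairs) when 1 array was left out. Of these 33, 20 came from the 2 settings that fit fewer probe sets; the cause of the others was not tested. With 1 probe set per gene the counts were 19 for B minus T, 13 for B minus myeloid, 9 for T minus myeloid, 7 for LinNeg minus KSL, 17 for LinNeg minus B, 3 for KSL minus myeloid, 2 for NKT minus T, 8 for NK minus T, 0 for CD4T minus CD8T and 15 for members above every other population. Without _x_at and _s_at probe sets they were 21, 13, 12, 7, 17, 5, 3, 6, 0 and 16 in the same order. Both settings hold fewer members, and the first at most 27, 1 for each gene named alone. In the reported fit 27 tested members were not _x_at or _s_at, with 74.1% called in B minus T and 25.9% in LinNeg minus KSL. These shares were 72% and 44% of all 50 tested members, and 11.4% and 4.23% of all probe sets. A test against a log2 difference of 1 gave 11 for LinNeg minus KSL, 23 for LinNeg minus B, 2 for KSL minus myeloid, 2 for NKT minus T, 0 for CD4T minus CD8T and 14 members above every other population. With probe sets of 1 symbol only (chosen after seeing the data) the counts were 14 for LinNeg minus KSL, 4 for KSL minus myeloid, 4 for NKT minus T and 0 for CD4T minus CD8T. In the limma model 2 members had an unadjusted p under 0.05 in CD4T minus CD8T. With the pseudocount at the median, KSL minus myeloid gave 4. Leaving out 1 array at a time gave 14 to 23 for LinNeg minus KSL and 5 to 10 for KSL minus myeloid. With a replicate block the counts were 36, 26, 19, 23, 35, 8, 7, 18, 2 and 29, and it ended the calls of Igkv4-72 in KSL minus myeloid and of Ighm 1427756_x_at in LinNeg minus B; the labels do not say that the numbers pair samples. After centring on array medians, the share of higher calls in CD4T minus CD8T among all probe sets moved from 68.6% to 57.1%, and the median difference of all probe sets in T minus myeloid from 0.14 to 0.01 and in NK minus T from -0.13 to -0.04. The 2 arrays per population limit the precision, and members under an intensity of about 22.9 were too dim to be tested. The ratio of 3' to 5' control probe sets also differed between arrays. For GAPDH it ran from 2.36 on a Neutrophil array to 6.10 on an Erythroblast array. For beta-actin it ran from 1.34 to 2.73 on arrays of the same populations. The effect of this on the member levels was not tested.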
